A study of Homo sapiens with 4 samples.

Results

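Box H/ACA and Cajal body RNA genes were examined in RNA-seq libraries of a breast cancer cell line transfected with a miR-217 mimic or with its control. Members were chosen by symbol, which had to start with SNORA or SCARNA followed by a digit, and by level, a mean over the 4 libraries of at least 1 RPKM (reads per kilobase of gene and 1000000 reads). This rule kept 37 of the 122 genes with such a symbol, out of 32955 genes in the whole table. Of the 37 members, 34 were SNORA and 3 were SCARNA genes (SCARNA12, SCARNA15 and SCARNA22). The level of each member was therefore used to choose it, and levels are given as a description only. The rule did not use the contrast between the mimics.

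H/ACA RNAs are short non-coding RNAs of the nucleolus that fold into a pair of hairpins, joined by the hinge or H box and closed by the letters ACA near the 3′ end. They guide the pseudouridine synthase dyskerin (DKC1), with its partners NOP10, NHP2 and GAR1, to uridines of ribosomal and spliceosomal RNA. Small Cajal body RNAs (scaRNAs) guide chemical modification of spliceosomal RNAs in the Cajal body, and not all of them are H/ACA RNAs only. Most of these RNAs in human cells are not transcribed from promoters of their own but are cut out of introns of host genes, many of which encode ribosomal proteins or are non-coding snoRNA host genes (SNHG), and their mature forms carry no poly(A) tail.

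The 4 libraries were labelled as MDA-MB-231, a line derived from a breast carcinoma without estrogen receptor, grown in DMEM with fetal bovine serum. In 2 libraries the cells had been transfected with a negative control mimic (mimic NC), and in 2 with miR-217 mimic, a synthetic RNA duplex designed to act as miR-217. The comparison asks which RNAs change when this miRNA is raised. All 4 come from a single cell line with transient transfection, and the labels number the replicates 1 and 2 in each group without saying whether they were separate cultures, so p-values measure only the spread between these libraries. The libraries were prepared from total RNA with a kit named for mRNA, and the labels do not say how mRNA was selected.

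The libraries held 57933183 and 47374957 reads for mimic NC and 53356283 and 32635814 reads for miR-217 mimic, as recovered from the RPKM values. The second miR-217 mimic library was thus the smallest. Libraries with the same replicate number resembled each other, and at an adjusted p under 0.05 in limma 8.38% of the 13871 genes with a mean of at least 1 RPKM differed between number 2 and number 1. Between the mimics no gene passed it in limma or limma voom, and 67 genes were higher and 98 lower with miR-217 mimic at an unadjusted p under 0.05 in limma (97 and 79 after the libraries were centred on their medians). Mesenchymal markers of the line were present (VIM at 27.9 to 36.9 RPKM and CD44 at 13.5 to 26.0 RPKM), and ESR1 was at 0.0294 to 0.0756 RPKM and CDH1 at 0.169 to 0.433 RPKM. Against the label, CDKN2A, which is described as deleted in MDA-MB-231, was at 10.5 to 13.2 RPKM, and the epithelial marker EPCAM was at 3.90 to 7.41 RPKM. PGR was not analysed here.

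A symbol in this table did not always stand for 1 RNA. The coordinates placed 25 members at 1 place in the genome each, and 12 members at several places, 10 of them on more than 1 chromosome. Of the 101 places in all, 100 had the same start and end as a transcript of GENCODE 29 on GRCh38. SNORA40 pooled 22 places on 13 chromosomes with 2631 bases, and SNORA63 pooled 11 places. SCARNA15 pooled 4 places with 4699 bases, and a single place on chromosome 15 took 4325 of these. GENCODE 29 named 58 of the 76 places of the pooled symbols only by an RNA family number and not by a gene symbol, and 27 of the 76 lay inside a same-strand gene. All 25 members at 1 place lay inside a same-strand host gene. SNORA17 and SNORA17A had the same number of reads in all 4 libraries, since a place of SNORA17 inside SNHG7 overlaps the SNORA17A gene. Reads at that place were counted under both names.

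The sequences of 8 members at 1 place, taken from the GRCh38 genome and given 5′ to 3′ on the strand of the gene, are shown because the results below turn on them. They are the member of highest RPKM (SNORA61, chr1:28579764-28579893, minus strand), the second highest (SNORA17A, chr9:136726747-136726879, minus strand), and the scaRNAs at 1 place (SCARNA12, chr12:6967337-6967606, minus strand, and SCARNA22, chr4:1974636-1974760, plus strand). The members that passed the unadjusted test are SNORA14B (chr1:235127803-235127937, minus strand), SNORA2A (chr12:48656648-48656782, minus strand) and SNORA3A (chr11:8684227-8684356, plus strand). SNORA3B (chr11:8685439-8685569, plus strand) is the neighbour of SNORA3A in the same host. Capitals mark the match to ANANNA nearest to the middle, the form of the H box, and the letters ACA where they stand at bases 4 to 6 from the 3′ end.
SNORA61: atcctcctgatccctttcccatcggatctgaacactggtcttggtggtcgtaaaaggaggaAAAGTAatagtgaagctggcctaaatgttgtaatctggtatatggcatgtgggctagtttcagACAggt
SNORA17A: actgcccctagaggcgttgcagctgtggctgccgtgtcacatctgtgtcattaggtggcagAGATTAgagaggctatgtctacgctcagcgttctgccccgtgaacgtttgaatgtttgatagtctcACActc
SCARNA12: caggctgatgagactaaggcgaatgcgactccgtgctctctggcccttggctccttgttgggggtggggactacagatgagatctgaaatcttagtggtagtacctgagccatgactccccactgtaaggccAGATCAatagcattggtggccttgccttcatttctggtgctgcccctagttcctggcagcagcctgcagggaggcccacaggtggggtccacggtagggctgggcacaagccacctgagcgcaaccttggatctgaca
SCARNA22: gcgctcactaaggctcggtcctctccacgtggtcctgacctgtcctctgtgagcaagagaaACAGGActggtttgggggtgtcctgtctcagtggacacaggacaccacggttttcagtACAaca
SNORA14B: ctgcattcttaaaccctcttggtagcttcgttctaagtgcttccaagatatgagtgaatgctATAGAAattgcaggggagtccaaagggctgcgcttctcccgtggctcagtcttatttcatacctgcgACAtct
SNORA2A: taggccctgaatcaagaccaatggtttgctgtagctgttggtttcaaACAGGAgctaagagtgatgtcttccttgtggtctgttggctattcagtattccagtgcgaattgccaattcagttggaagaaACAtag
SNORA3A: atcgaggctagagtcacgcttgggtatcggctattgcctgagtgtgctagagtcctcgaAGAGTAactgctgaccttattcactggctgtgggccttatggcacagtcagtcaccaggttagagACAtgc
SNORA3B: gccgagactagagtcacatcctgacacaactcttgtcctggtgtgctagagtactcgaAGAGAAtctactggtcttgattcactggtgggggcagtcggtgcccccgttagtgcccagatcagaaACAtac

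Both motifs were searched on the strand of the gene only. ACA stood at bases 4 to 6 from the 3′ end in 21 of the 25 members at 1 place (84.0%), against 126 of the 173 SNORA and SCARNA genes of GENCODE 29 (72.8%), 4 of 288 box C/D genes (1.39%) and 176 of 3641 other small RNA genes of like length (4.83%). Among the places of the pooled symbols it stood there in 22 of 75 (29.3%). SCARNA12, whose 270 bases make it the longest member at 1 place, was among those without ACA at this position. ANANNA is a loose motif. It lay in the central part of all 25 members at 1 place and of 66 of the 75 pooled places (88.0%), but also of 69.6% of the other small RNAs. A place that lacked these letters at this position was described by them only, and nothing about its processing was measured.

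Levels of the members ranged from 1.01 to 28.9 RPKM with a median of 1.69 RPKM, and from 6.75 to 276 reads as a mean per library. SNORA61, an H/ACA RNA encoded in SNHG12, had the highest level, at 29.6 and 22.1 RPKM in mimic NC and 25.8 and 37.9 RPKM in miR-217 mimic. SNORA17A, from SNHG7, stood at 11.4 and 13.5 RPKM in mimic NC and 12.4 and 18.7 RPKM in miR-217 mimic. In both genes the groups overlapped, and the second miR-217 mimic library was the highest. Levels above 10 RPKM on average were otherwise found for SCARNA12 and for SNORA7A, which lies in the gene of the ribosomal protein RPL32. The members other than SNORA17, whose reads repeat those of SNORA17A, took 41.2 and 33.7 of every 1000000 reads in mimic NC and 38.6 and 46.0 in miR-217 mimic. Most members thus rested on few reads, and 15 had fewer than 20 in every library.

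**Figure D1:**
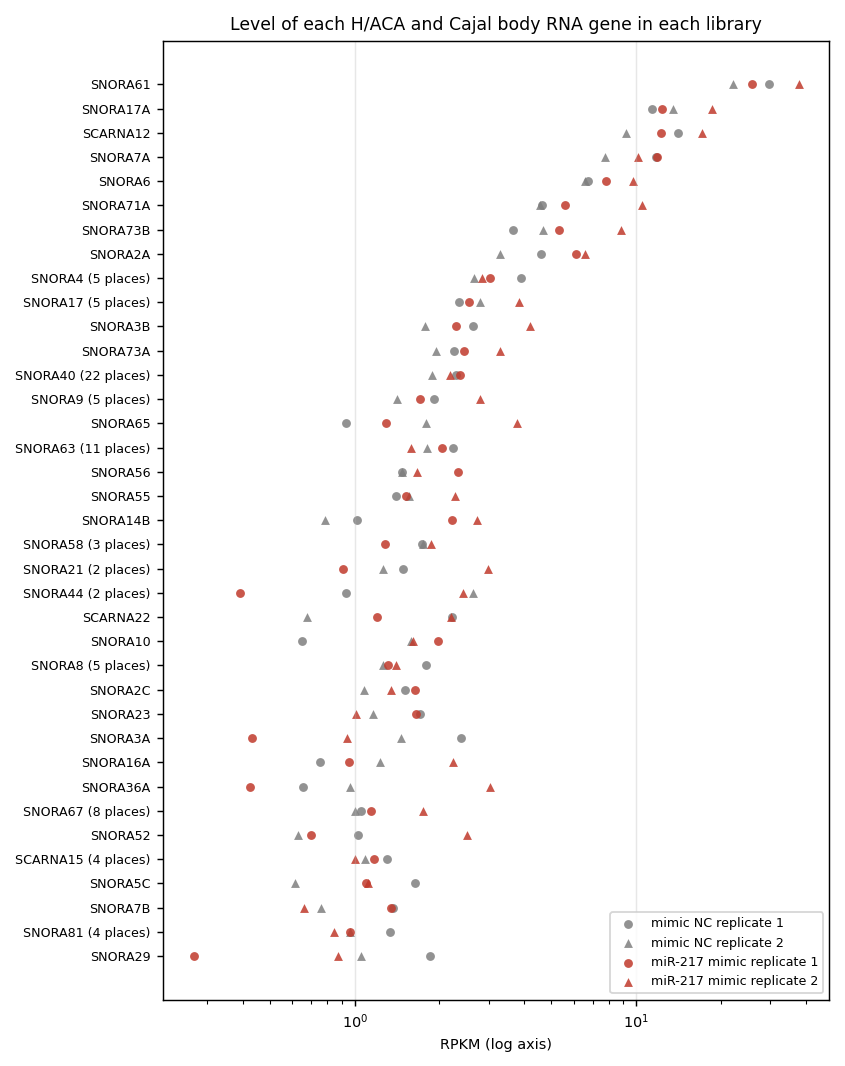
Level of each of the 37 members in RPKM (log axis) in the 4 libraries, ordered by mean, with mimic NC in grey, miR-217 mimic in red, circles for replicate 1 and triangles for replicate 2. The second miR-217 mimic library (red triangle) was the highest of the 4 in 20 members.

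By reads rather than by level, the order changed, because the pooled symbols are long. SNORA40 had 350 and 234 reads in mimic NC and 333 and 187 in miR-217 mimic, but only 2.18 RPKM on average. SNORA63 was at 2.24 and 1.81 RPKM in mimic NC and 2.05 and 1.58 RPKM in miR-217 mimic, and SNORA4 was at 3.89 and 2.65 RPKM against 3.02 and 2.84 RPKM. The groups overlapped in all 3 of these pooled genes. Each of them had a log2 fold change between -0.11 and 0.09.

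The 3 scaRNA genes differed widely in level. SCARNA12, which lies in the gene of prohibitin 2 (PHB2), was at 14.1 and 9.22 RPKM in mimic NC and 12.2 and 17.1 RPKM in miR-217 mimic. SCARNA22, in an intron of WHSC1, a histone methyltransferase gene, was at 2.21 and 0.675 RPKM in mimic NC and 1.20 and 2.21 RPKM in miR-217 mimic, from 4 to 16 reads. SCARNA15 was at 1.31 and 1.09 RPKM in mimic NC and 1.17 and 1.00 RPKM in miR-217 mimic. Its RPKM was taken over 4699 bases, 4325 of them at the place on chromosome 15, the only place without a match in GENCODE 29. The RPKM of SCARNA15 is thus not the level of a single scaRNA. The groups overlapped in all 3, with log2 fold changes of 0.32 (SE 0.26), 0.20 (SE 0.37) and -0.07 (SE 0.13) for SCARNA12, SCARNA22 and SCARNA15.

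The threshold on the mean separated genes of nearly the same level. SNORA29 and SNORA81 stood just inside, at 1.01 and 1.03 RPKM on average. SNORA18 and SCARNA17 stood just outside, at 0.949 and 0.894 RPKM. A threshold of 0.5 RPKM would have kept 53 genes, and 1 of 2 RPKM would have kept 13. Of the 37 members, 30 reached a mean of 1 RPKM in both groups. SNORA14B, SNORA16A, SNORA36A and SNORA52 reached it only with miR-217 mimic, and SNORA3A, SNORA81 and SNORA29 only with mimic NC, so that these 7 had to lie on 1 side of the comparison.

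For the comparison between the mimics, each gene was tested with limma on log2(RPKM + 1), a scale that understates the change of genes near 1 RPKM. In bulk RNA, fewer cells of a type and less RNA per cell cannot be told apart. No member passed an adjusted p under 0.05 (Benjamini-Hochberg over all genes). At an unadjusted p under 0.05, 2 of 37 members were higher with miR-217 mimic, against 0.483% of all genes tested, and 1 was lower, against 0.707%. Short genes were called more often than the whole table. Of the 631 genes tested under 300 bases, 5.39% were called higher and 5.23% lower, so the count of 2 higher members lay near the share of short genes. Among the 30 members at 1 RPKM or more in both groups, 1 was called higher (SNORA2A) and 0 lower. With limma voom on the recovered reads, a test that weights genes by their counts, 1 member was called higher and none lower at an unadjusted p under 0.05. Of all 13871 genes tested, 26 were called higher and 56 lower in limma voom. Again no member passed the adjusted p. The smallest two-sided p that an exact permutation test of this design allows is 0.333.

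SNORA14B, an H/ACA RNA gene in an intron of TOMM20, had 8 and 5 reads in mimic NC and 16 and 12 in miR-217 mimic. Its level was 1.02 and 0.782 RPKM in mimic NC and 2.22 and 2.72 RPKM in miR-217 mimic, or 0.902 ± 0.170 against 2.47 ± 0.355 RPKM (SD, n = 2). Both miR-217 mimic libraries lay above both control libraries. The log2 fold change was 0.87 (SE 0.15), with an unadjusted p of 0.00224 and an adjusted p of 1.00 in limma. It stayed between 0.76 and 0.97 with any 1 library left out. The rate of reads was 2.64 times that of the control, with a 95% exact binomial interval of 1.32 to 5.55. Like the other intervals below, it covers counting error only. SNORA14B reached a mean of 1 RPKM only with miR-217 mimic. The threshold thus fixed the side on which its mean lay, and its direction is no result.

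SNORA2A, in an intron of KANSL2, had 36 and 21 reads in mimic NC and 44 and 29 in miR-217 mimic. Its level was 4.60 and 3.28 RPKM in mimic NC and 6.11 and 6.58 RPKM in miR-217 mimic, or 3.94 ± 0.933 against 6.35 ± 0.335 RPKM (SD, n = 2). The groups did not overlap. The log2 fold change was 0.58 (SE 0.17) with an unadjusted p of 0.0198 and an adjusted p of 1.00 in limma. The log2 fold change of SNORA2A was 0.68 with an unadjusted p of 0.118 in limma voom, and 0.54 with 0.0534 in limma without the second miR-217 mimic library. It was also no longer called without the second mimic NC library, where its log2 fold change was 0.39. SNORA2C, which lies in the same host and matched SNORA2A at 73.9% of aligned positions, was at 1.51 and 1.08 RPKM in mimic NC and 1.64 and 1.34 RPKM in miR-217 mimic, with overlapping groups.

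SNORA3A was the member called lower. It had 18 and 9 reads in mimic NC and 3 and 4 in miR-217 mimic, or 1.93 ± 0.657 against 0.688 ± 0.361 RPKM (SD, n = 2). Both miR-217 mimic libraries lay below both controls, with a log2 fold change of -0.79 (SE 0.24), an unadjusted p of 0.0220 and an adjusted p of 1.00 in limma. The rate of reads was 0.317 times that of the control, with an interval of 0.117 to 0.747, and the unadjusted p was 0.0591 in limma voom. Without the first mimic NC library or the first miR-217 mimic library, it was no longer called in limma. SNORA3B, its neighbour in RPL27A with 70.1% identity to it, went the other way, at 2.64 and 1.77 RPKM in mimic NC and 2.29 and 4.21 RPKM in miR-217 mimic, but its groups overlapped. In both SNORA3A and SNORA14B the threshold was reached in 1 group only.

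Outside these 3 members, groups were compared by overlap. In 9 of 37 members (24.3%) both miR-217 mimic libraries lay above both controls, against 9.72% of all genes tested and 14.7% of those under 300 bases. In 3 members (8.11%) they lay below, against 13.5% of all genes tested and 13.5% of those under 300 bases. The 9 were SNORA14B, SNORA2A, SNORA71A, SNORA73B, SNORA6, SNORA73A, SNORA10, SNORA56 and SNORA67, and the 3 were SNORA3A, SNORA29 and SNORA81. All 3 lower members reached a mean of 1 RPKM only with mimic NC, and SNORA14B reached it only with miR-217 mimic. The threshold thus fixed the side on which their means lay, and their direction is no result. SNORA71A, in an intron of SNHG17, was at 4.64 and 4.57 RPKM in mimic NC and 5.59 and 10.5 RPKM in miR-217 mimic. SNORA73B, which lies within RCC1, was at 3.64 and 4.66 RPKM against 5.33 and 8.86 RPKM. SNORA6, in the gene of the ribosomal protein RPSA, was at 6.74 and 6.57 RPKM against 7.82 and 9.74 RPKM. In these 3 members the second miR-217 mimic library was the highest, and none passed the unadjusted test. The difference was above 0 within both numbers in each, at 0.23 and 1.05 for SNORA71A, 0.45 and 0.80 for SNORA73B and 0.19 and 0.50 for SNORA6. Their log2 fold changes over all 4 libraries were 0.64 (SE 0.28), 0.63 (SE 0.25) and 0.35 (SE 0.14). SNORA29 had 15 and 7 reads in mimic NC and 2 and 4 in miR-217 mimic. Its log2 fold change was -0.65 (SE 0.27), and that of SNORA81 was -0.17 (SE 0.15).

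Over all 37 members the median log2 fold change was 0.22, with 26 above 0 and 11 below, against a median of -0.02 over all genes tested. For the members that reached 1 RPKM in only 1 group, the threshold fixed the side. Among the 30 members at 1 RPKM or more in both groups the median was 0.22, with 22 above 0 and 8 below. The median over all 37 depended on the libraries numbered 2, most on the second miR-217 mimic library. Within number 1 the members' median was -0.03, with 17 of 37 above 0, and within number 2 it was 0.39, with 29 above 0. Without the second miR-217 mimic library the median was 0.02, and without the first miR-217 mimic library it was 0.44, with 14 members called higher in place of 2 and 0 lower. Calls also rose across the table without that library, to 2.08% higher and 4.16% lower of all genes tested. Leaving out mimic NC replicate 1 or 2 gave 0.26 or 0.15. The second miR-217 mimic library was the highest of the 4 in 20 of 37 members (54.1%), against 27.1% of all genes tested and 33.0% of the 631 genes tested under 300 bases. The second mimic NC library was the lowest in 18 members (48.6%), against 23.1% of all genes. The part of the library's size and of its replicate number in the median was not tested.

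**Figure D2:**
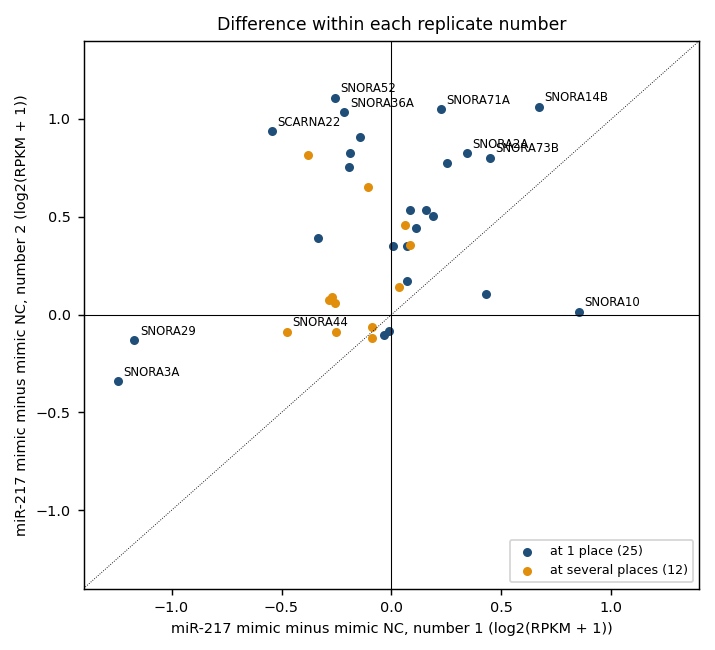
Difference of log2(RPKM + 1) between miR-217 mimic and mimic NC within replicate number 1 (horizontal) and within number 2 (vertical) for each member, in blue for members at 1 place and in orange for those at several, with a dotted line where both are equal. Most points lie above the dotted line, with 29 of 37 above 0 in number 2 and 17 of 37 in number 1.

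**Figure D3:**
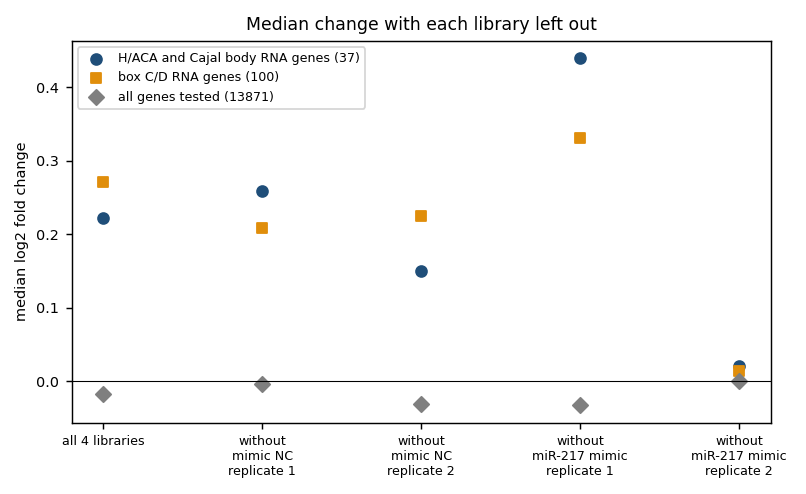
Median log2 fold change with all 4 libraries and with each left out, for the 37 H/ACA and Cajal body RNA genes (circles), the 100 box C/D RNA genes (squares) and the 13871 genes tested (diamonds). Without the second miR-217 mimic library the median of the members was 0.02 and that of the box C/D RNA genes 0.01.

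The members at 1 place and the pooled symbols had different medians, at 0.31 over 25 and -0.08 over 12. Of the 26 members above 0, 21 were at 1 place. The median of the mean reads was 10.8 for members at 1 place and 59.4 for the pooled symbols. Members that shared no exon base with another gene had a median of 0.38 over 11 genes, and those with every base inside exons of other genes had 0.28 over 12 genes. Without the second miR-217 mimic library these medians were 0.09, -0.04, 0.13 and 0.01 in the same order. The 85 symbols below the threshold of 1 RPKM had a median of 0.02 in a fit without a filter, with 47 above 0, 38 below, 3 called higher and 1 lower at an unadjusted p under 0.05. In that fit 1.27% of all 32955 genes were called higher and 1.4% lower. The symbols below the threshold held between 1 and 170 reads over the 4 libraries together.

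Box C/D RNAs, which guide methylation of ribose in the same target RNAs and also come from introns, differ from H/ACA RNAs in structure and in their proteins. The 100 box C/D genes (SNORD) with a mean of at least 1 RPKM had a median log2 fold change of 0.27. In limma 10 of them were called higher and 4 lower at an unadjusted p under 0.05, and none at the adjusted p. The shares called higher and lower were 0.483% and 0.707% of all genes tested, and 5.39% and 5.23% of those under 300 bases. Their groups did not overlap in the higher direction in 28.0% and in the lower direction in 9.00%, against 24.3% and 8.11% of the members. The second miR-217 mimic library was the highest in 52.0% of them, and without it their median was 0.01. The second mimic NC library was the lowest in 33.0% of them, against 48.6% of the members, and the median difference between the second and the first mimic NC library was -0.05 for the box C/D genes and -0.20 for the members. The difference between the families was not tested.

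Between the replicate numbers, with the group as a covariate in limma, 7 members were higher in number 2 at an unadjusted p under 0.05, against 13.8% of all genes tested, and 3 were lower, against 19.6%. Only SNORA44 passed the adjusted p under 0.05, 1 of 37 members against 8.38% of all genes tested. It had 13 and 30 reads in mimic NC and 5 and 19 in miR-217 mimic, and in both groups number 2 was the higher. The difference was 1.11 on the log2 scale with an adjusted p of 0.0312 in limma. The difference of SNORA44 was 0.87 to 1.34 with 1 library left out, in fits that could not hold the group as a covariate. No test of SNORA44 is given for those fits. Without a filter on low genes the difference was 1.11 with an adjusted p of 0.132 in limma. In the other settings on all 4 libraries that tested SNORA44, limma voom among them, its adjusted p was from 0.0207 to 0.0418. SNORA44 pooled 2 places on chromosome 1, and 1 of these lies in SNHG12, the host of SNORA61 and SNORA16A.

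A single host could be given to 26 members, in 21 host genes. The host was the gene on the same strand whose span holds the RNA gene, other small RNA genes left out. Where several genes held it, the one with the highest mean RPKM was taken. SNORA73A and SNORA73B were thus given RCC1 and not SNHG3, a choice that lowers their ratio to the host. The ratio of mean RPKM between the RNA gene and its host ranged from 0.00573 to 9.39 with a median of 0.0794, so most members stood far below their hosts. The ratio was above 1 in 4. SNORA61 was 9.39 times as high as SNHG12, SNORA17A 6.84 times as high as SNHG7, SNORA71A 1.79 times as high as SNHG17 and SNORA2A 1.08 times as high as KANSL2. The host SNHG12 was at 2.72 and 2.86 RPKM in mimic NC and 2.65 and 4.07 RPKM in miR-217 mimic. The short SNORA61 gene held as many reads as 36.5% of those counted for SNHG12, and SNORA17A as many as 20.9% of those for SNHG7.

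At the other end were RNA genes inside highly expressed protein-coding genes. SNORA65, in an intron of RPL12, had 0.00681 of its host's RPKM, with the host at 271 to 309 RPKM. SNORA56, in DKC1, the gene of dyskerin itself, had 0.0148 of its host's RPKM, and SNORA23, in an intron of the importin gene IPO7, had 0.0231. These are the lowest ratios among members with a mean of at least 10 reads. The 8 members in 7 ribosomal protein genes had a median ratio of 0.0281, the 4 members in 3 SNHG genes 4.32, and the 14 members in 11 other hosts 0.133. Over the 26 members the levels of RNA gene and host had a Pearson r of -0.29 and a Spearman rho of -0.17 (n = 26 members in 21 hosts, the same 4 libraries), a description across genes.

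**Figure D4:**
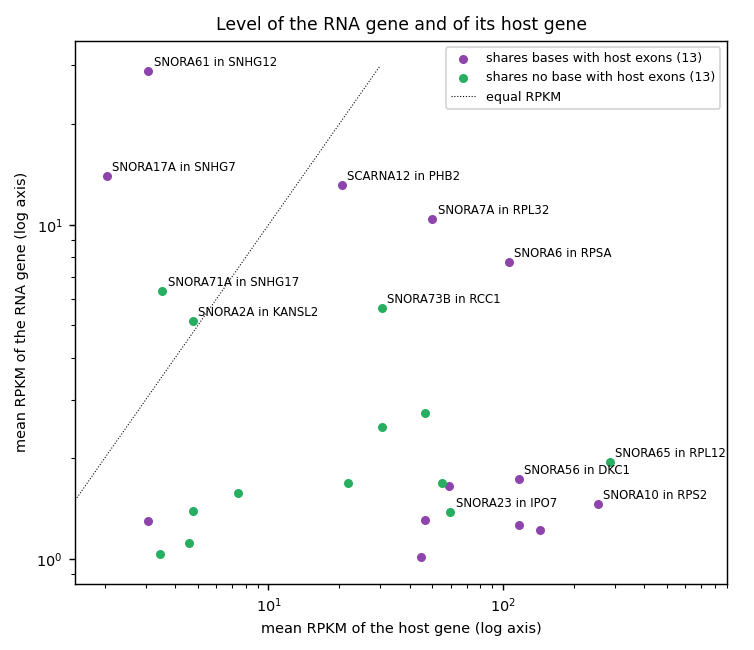
Mean RPKM of each of 26 RNA genes (vertical, log axis) against that of its host gene (horizontal, log axis), in purple for the 13 that share bases with exons of the host and in green for the 13 that share none, with a dotted line at equal RPKM. Only SNORA61, SNORA17A, SNORA71A and SNORA2A lie above the line.

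The annotation sets what such a ratio can show. Of the 26 members with a host, 13 shared bases with exons of the host in the table, and reads from the host's own transcripts can then fall in the RNA gene. In GENCODE 29, of the 14 SNHG12 transcripts whose span holds SNORA61, 4 contained SNORA61 as exon sequence, and all 4 were of the retained intron type. The 12 members with every base inside exons of other genes still held reads, so reads shared with another gene had not been left out of the table. The 13 members that shared no host exon base had a median ratio of 0.185, against 0.0282 for those that did. The value of 0.185 was the ratio of SNORA73B to RCC1, taken over SNHG3 for its higher level, so it depends on that choice. Among the members without a shared host exon base, SNORA73A and SNORA2C still shared bases with exons of other genes (75 of the 137 bases of SNORA2C). Whether the reads came from the mature RNA, from an unspliced host transcript or from a retained intron was not tested. SNORA73A and SNORA73B lie inside RCC1 and also inside SNHG3, which was at 8.10 to 10.4 RPKM, and the exons of SNHG3 in the table held all bases of SNORA73A.

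No host gene passed the unadjusted test, and the lowest unadjusted p in limma was 0.195, for PABPC4, the host of SNORA55. The median log2 fold change of the hosts, counted once for each member, was 0.10, and the median difference between RNA gene and host was 0.21, with 20 of 26 differences above 0. Within number 1 this median was -0.05 with 12 above 0, and within number 2 it was 0.35 with 19 above 0. It was 0.04 without mimic NC replicate 2 and 0.05 without miR-217 mimic replicate 2. The direction was thus again that of number 2. The 26 differences include those of SNORA14B, SNORA16A, SNORA36A, SNORA52, SNORA3A and SNORA29, for which the threshold fixed the side of the RNA gene. Across the 26 members the log2 fold changes of RNA gene and host had a Pearson r of 0.04 and a Spearman rho of 0.10. This is a description across genes that share the same 4 libraries. The log2(RPKM + 1) scale understates changes of RNA genes near 1 RPKM more than those of higher hosts. In limma voom the median difference was 0.24. Reads in bases shared with host exons can count for both genes, so the changes are then not separate measures. The median difference was 0.21 for the 13 members sharing host exon bases and 0.22 for the 13 sharing none.

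The 3 called members had other values than their hosts. TOMM20, a receptor of the mitochondrial import machinery, was at 20.01 and 25.1 RPKM in mimic NC and 20.5 and 22.1 RPKM in miR-217 mimic. SNORA14B exceeded the change of TOMM20 by 0.94 on the log2(RPKM + 1) scale. KANSL2, a subunit of a histone acetyltransferase complex, was at 4.19 and 4.81 RPKM in mimic NC and 4.39 and 5.68 RPKM in miR-217 mimic, with a log2 fold change of 0.13 (SE 0.16). RPL27A, a protein of the large ribosomal subunit, was at 47.8 and 45.7 RPKM in mimic NC and 50.1 and 43.0 RPKM in miR-217 mimic. The difference to this host was -0.78 for SNORA3A and 0.39 for SNORA3B. RNA genes of 1 host therefore had values on both sides of it, and the difference between SNORA3A and SNORA3B was not tested.

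**Figure D5:**
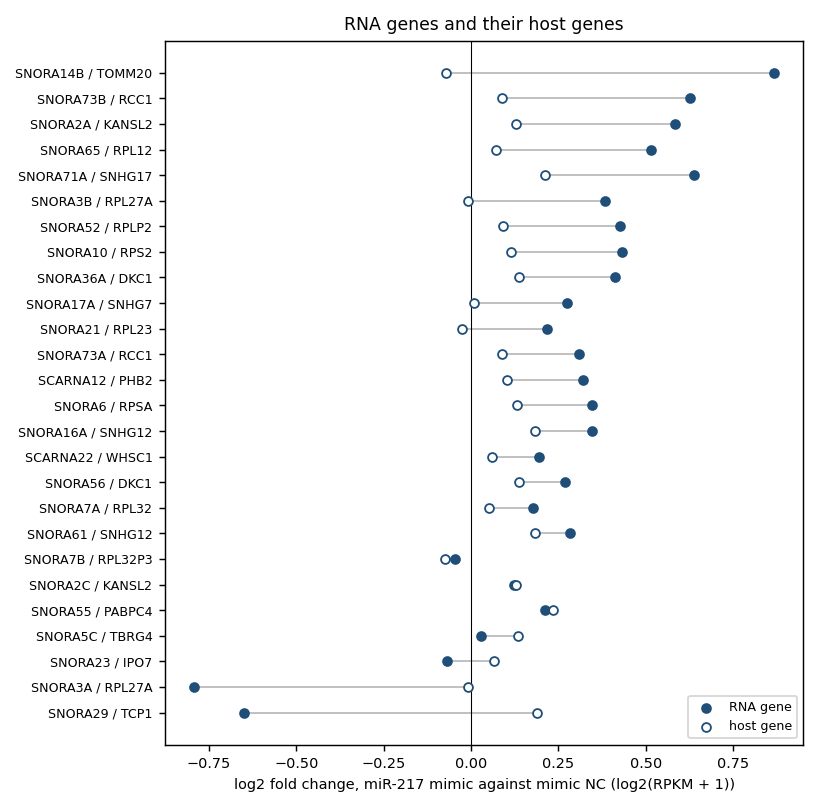
Log2 fold change between miR-217 mimic and mimic NC of 26 RNA genes (filled circles) and of their host genes (open circles), joined by a grey line and ordered by the difference. The hosts lie between -0.07 and 0.24, and the RNA genes between -0.79 and 0.87.

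The listed genes cover the core proteins of the H/ACA particle, its assembly factors, Cajal body proteins, factors of RNA 3′ end processing, and telomerase (TERT and TERC). None of those tested passed the test between the mimics. Of 24 genes listed, 21 reached 1 RPKM, and 0 were called at an unadjusted p under 0.05 in either direction in limma or in limma voom, with 12 log2 fold changes above 0 and 9 below. Their median was 0.02 and their range -0.13 (NHP2) to 0.18 (RUVBL1, a helicase that takes part in assembly). DKC1, the enzyme, was at 80.2 and 143 RPKM in mimic NC and 90.4 and 154 RPKM in miR-217 mimic. GAR1, which joins the mature particle, was at 17.7 and 28.4 RPKM against 17.9 and 27.4 RPKM. NOP10 was at 36.1 and 31.6 RPKM against 37.4 and 26.8 RPKM, and NHP2 was at 74.0 and 67.7 RPKM against 70.7 and 59.1 RPKM. In both groups DKC1 and GAR1 were higher in the library numbered 2, whereas NOP10 and NHP2 were lower.

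Between the numbers, 7 of the 21 protein genes were called higher in number 2, against 13.8% of all genes tested, and 2 lower, against 19.6%, at an unadjusted p under 0.05. DKC1, GAR1 and NOLC1, a chaperone of the nucleolus and Cajal body, passed the adjusted p in limma. These were 3 of 21 genes, against 8.38% of all genes tested. The difference of DKC1 was 0.79 with an adjusted p of 0.0230 in limma. DKC1 is also the host of SNORA56 and SNORA36A. SNORA36A had 5 and 6 reads in mimic NC and 3 and 13 in miR-217 mimic, and SNORA56 had 11 and 9 against 16 and 7. On the RPKM scale SNORA36A was higher in number 2 in both groups, as DKC1 was, and SNORA56 was not. WRAP53, which carries scaRNAs to Cajal bodies, was at 0.879 to 1.12 RPKM, and TERT, the telomerase enzyme, at 0.0549 to 0.162 RPKM. The telomerase RNA TERC, itself an H/ACA RNA, was at 0.104 to 0.255 RPKM, from 3 to 8 reads.

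Near-identical copies limit some of these values. SNORA7A and SNORA7B matched at 98.6% of aligned positions and SNORA73A and SNORA73B at 93.2%, so reads of 1 copy may have been assigned to the other. SNORA7A was at 11.8 and 7.75 RPKM in mimic NC and 11.9 and 10.1 RPKM in miR-217 mimic, and SNORA7B, in the pseudogene RPL32P3, was at 1.37 and 0.759 RPKM against 1.35 and 0.661 RPKM. Both had overlapping groups. SNORA56 and SNORA36A, which share a host, matched at 46.4% only.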

How the data were processed

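The authors deposited 1 table of RPKM values per gene for 4 libraries, scaled by gene length and by the reads over the listed genes. Per the labels, a stranded mRNA kit was used, and the submitters' processing notes name Trimmomatic 0.36, featureCounts, Subread 1.5.1, edgeR 3.12.1 and hg38; the annotation and the treatment of reads shared by genes are not given in the sources used here. Groups and replicate numbers came from the labels, and columns were matched by name. Reads were recovered from the steps of the RPKM values, and 100% came out whole within 1e-06. Genes with a mean of at least 1 RPKM were tested on log2(RPKM + 1) with limma 3.58.1 in R 4.3.3 (lmFit, eBayes with trend, no replicate term), two-sided, with Benjamini-Hochberg adjustment over all genes; the fit was tested on simulated counts. Places, hosts and exon overlap came from the table's coordinates, sequences and transcript types from GRCh38 and GENCODE 29 with Biopython 1.88, and plots from matplotlib 3.10.9. The depth sets the precision, which the intervals show as counting error only.

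The text names the 8 members with most reads, every SCARNA member, the called members, those with the largest changes among members with at least 10 mean reads and groups that do not overlap, the genes next to the threshold, those with the highest and lowest ratio to the host, their hosts and the core proteins; SNORA2C, SNORA3B, SNORA7A, SNORA7B, SNORA10, SNORA16A, SNORA36A, SNORA44, SNORA52, SNORA55, SNORA67, SNORA73A, RUVBL1, NOLC1, WRAP53, TERT, TERC, SNHG3 and PABPC4 were named after their values were seen. The members and the lists were chosen with earlier results of these data known. Alternatives were a pseudocount of 0.1, no filter, filters of 5 RPKM or 10 reads, median centring, a replicate block, limma voom, genes at 1 place, genes sharing no base, thresholds of 0.5 and 2 RPKM, and leaving out each library. Leaving out SNORA17 and taking SNHG3 as a host were added after seeing the data.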

Additional observations from a re-analysis of the deposited data

How the results depend on the processing

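Between the mimics, 2 members were called higher and 1 lower at an unadjusted p under 0.05, and 1 and 0 among the 30 members at 1 RPKM or more in both groups. A filter of 5 RPKM left only 8 members to test. The count of higher members was 1 with a filter of 5 RPKM, 1 in limma voom and 1 to 14 with 1 library left out, the 14 without miR-217 mimic replicate 1 and the 1 when replicate 2 of that group was dropped. The count of lower members was 0 with a filter of 5 RPKM, 0 in limma voom, 0 with a filter of 10 reads, 0 among genes sharing no base with another gene and 0 (without replicate 1 of either group) to 3 (without miR-217 mimic replicate 2) with 1 library left out, 2 without mimic NC replicate 2; the filters and the restriction to unshared genes removed SNORA3A, and for voom the cause was not tested. SNORA14B was called in all alternatives that tested it, but it reached 1 RPKM only with miR-217 mimic, so its direction is no sign of stability. Between the numbers, 7 members higher and 3 lower became 2 and 1 with the filter of 5 RPKM, 3 and 0 in limma voom, and 3 to 18 (without mimic NC replicate 2, otherwise 3) and 1 (without mimic NC replicate 1) to 10 (without miR-217 mimic replicate 2) with 1 library left out. Of all genes, 17.7% were higher and 18.9% lower in these 2 highest settings. The counts between the numbers with 1 library left out came from fits that could not hold the group as a covariate. In each of them 1 number was left with 1 library, so number and mimic could not be told apart. They are thus not the same contrast as the 7 and 3, and no conclusion on the stability of those counts is drawn from them. A threshold of 2 RPKM left 13 members. The members' median kept its sign, from 0.02 to 0.44, and that of RNA gene minus host from 0.04 to 0.31. Median centring shifted the median of all genes from -0.02 to 0.01 and changed no call of a member.

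The labels do not say what a replicate number marks, and with 2 pairs the pairing was not accepted as a design. Deviations of same-numbered libraries correlated at 0.680 (1 value, since with 2 libraries a group the deviations are opposites), and a first component with 71.3% of the variance separated the numbers. With a replicate block, 6 members were called higher (SNORA14B, SNORA2A, SNORA6, SNORA65, SNORA71A and SNORA73B) and 1 lower, against 2.7% and 4.84% of all genes, and 1 protein gene in place of 0. In limma voom with a replicate block, 2 members were called higher (SNORA14B and SNORA73B), 1 lower (SNORA3A) and 2 protein genes, against 3.14% higher and 5.95% lower of all genes. No member passed an adjusted p under 0.05 in any alternative of the comparison of the mimics. With 32635814 to 57933183 reads, 10 members had a mean under 10 reads, and changes smaller than their counting intervals were not detectable.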
